A study of Mus musculus with 45 samples.

Results

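The mice described here had no ethanol vapor. They were the air controls (Ctrl) of a chronic intermittent ethanol (CIE) time course in the nucleus accumbens (NAC), taken by their sample titles: control mice at 72 h (6 arrays) and at 7 d (6 arrays) after the last chamber session, set together as the late group, against control mice at 0 h (6 arrays). These are 18 of the 45 arrays of the series. All were adult male C57BL/6J mice, an inbred strain, and each array held RNA from 1 mouse. Ctrl mice received saline and pyrazole (1 mmol/kg) by injection and then breathed air in the inhalation chambers for 16 h per day, in 4 cycles of 4 days with 7 days between cycles. The late and the 0 h mice shared all of this and differed in the time since the last session. CIE mice, used below only beside a Ctrl value (11 late, 6 at 0 h), received ethanol in place of saline, the same pyrazole, and ethanol vapor in place of air. Ctrl mice at 8 h (5 arrays) are given where their values bear on a result. No mice without pyrazole or without the chamber were among the samples, so time since pyrazole, time since the chamber and time since handling cannot be told apart. No source used here gives the clock time at which tissue was taken.

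Pyrazole blocks alcohol dehydrogenase and is given in vapor studies to hold blood ethanol steady, and air controls receive it so that both arms carry the drug. Cells meet foreign small molecules with enzymes that oxidize them, such as aldehyde oxidase and the flavin monooxygenases, and with transferases that couple them to glutathione. Metallothioneins bind zinc and copper and are induced by metals, glucocorticoids and oxidative stress. Proteins that enter the secretory pathway are folded in the endoplasmic reticulum (ER) by chaperones, which the unfolded protein response raises when folding falls behind. Immediate early genes, such as Fos, Arc and the Egr and Nr4a families, are transcribed within minutes of neuronal activity and are widely used as readouts of recent activation. The NAC is made up mostly of medium spiny neurons, with oligodendrocytes and their precursors around them.

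The values are log2 signals of 45037 probesets, of which 34945 carry a single gene symbol (18193 genes). A change is a difference of group means on this log2 scale, late minus 0 h, with its standard error (SE) from a limma fit over all 45 arrays, and a probeset passed at a Benjamini-Hochberg adjusted p of 0.01 or less. Array medians lay between 6.94 and 6.96. Markers of medium spiny neurons were strong on all 18 arrays (log2 signal of Drd1 12.38 to 12.75, of Penk 13.58 to 13.88), while Neurod6, a marker of cortical pyramidal neurons, ranged between 5.00 and 9.42 and the choroid plexus gene Ttr between 4.66 and 10.47. Of the 18, the arrays with the most probesets over 1 log2 unit from the median of all arrays were mouse 62 at 7 d (1024), mouse 30 at 0 h (445) and mouse 52 at 72 h (322). Mouse 20 at 0 h stood apart by its immune and ependymal genes, described below. The labels give no batch. Arrays were sorted here into 6 sets by exact values they shared, 5 of which held Ctrl arrays of both 0 h and the late times, and whether these are the hybridization batches of the study is not known. All genes named below as having passed changed in the same direction in 5 of 5 sets. The sets hold the same arrays as the test, without mouse 20 at 0 h, so this is not a separate check of the calls.

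Late Ctrl mice differed from 0 h Ctrl mice in few genes, and more of them were lower than higher. Of 45037 probesets, 49 passed (0.109%): 14 were higher (0.0311%) and 35 lower (0.0777%) in late mice. They stood for 36 genes, 13 higher and 23 lower, beside 7 probesets with no single symbol. Sizes ranged between 0.23 and 1.36 log2 units, with medians of -0.55 for the falls and 0.40 for the rises, and 5 probesets exceeded 1 unit. At an adjusted p of 0.05 there were 94 probesets (0.209%), 34 of them higher (0.0755%) and 60 lower (0.133%). In 34 of the 49, no late array overlapped any 0 h array. Over all 45037 probesets, the 12 late arrays lay wholly below the 6 arrays of 0 h in 32 (0.0711%) and wholly above them in 15 (0.0333%). The count dropped to 20 without mouse 48 at 0 h and to 27 without mouse 78 at 0 h, and to 25 in a fit with these inferred sets as a block. Mouse 20 at 0 h, in no set, was a level of its own in the blocked fit. Its values therefore did not enter the changes there, so losses under the block reflect the sets and its absence together. Of the 36 genes, 14 passed without each of the 18 arrays in turn, and 12 of these passed in every other setting tried: Aox1, Gstm1, Mgst1, Mt1, Mt2, Sdf2l1, Manf, Nr4a1, Nr4a3, Gpr17, Gm11627 and Tnfaip2.

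**Figure D1:**
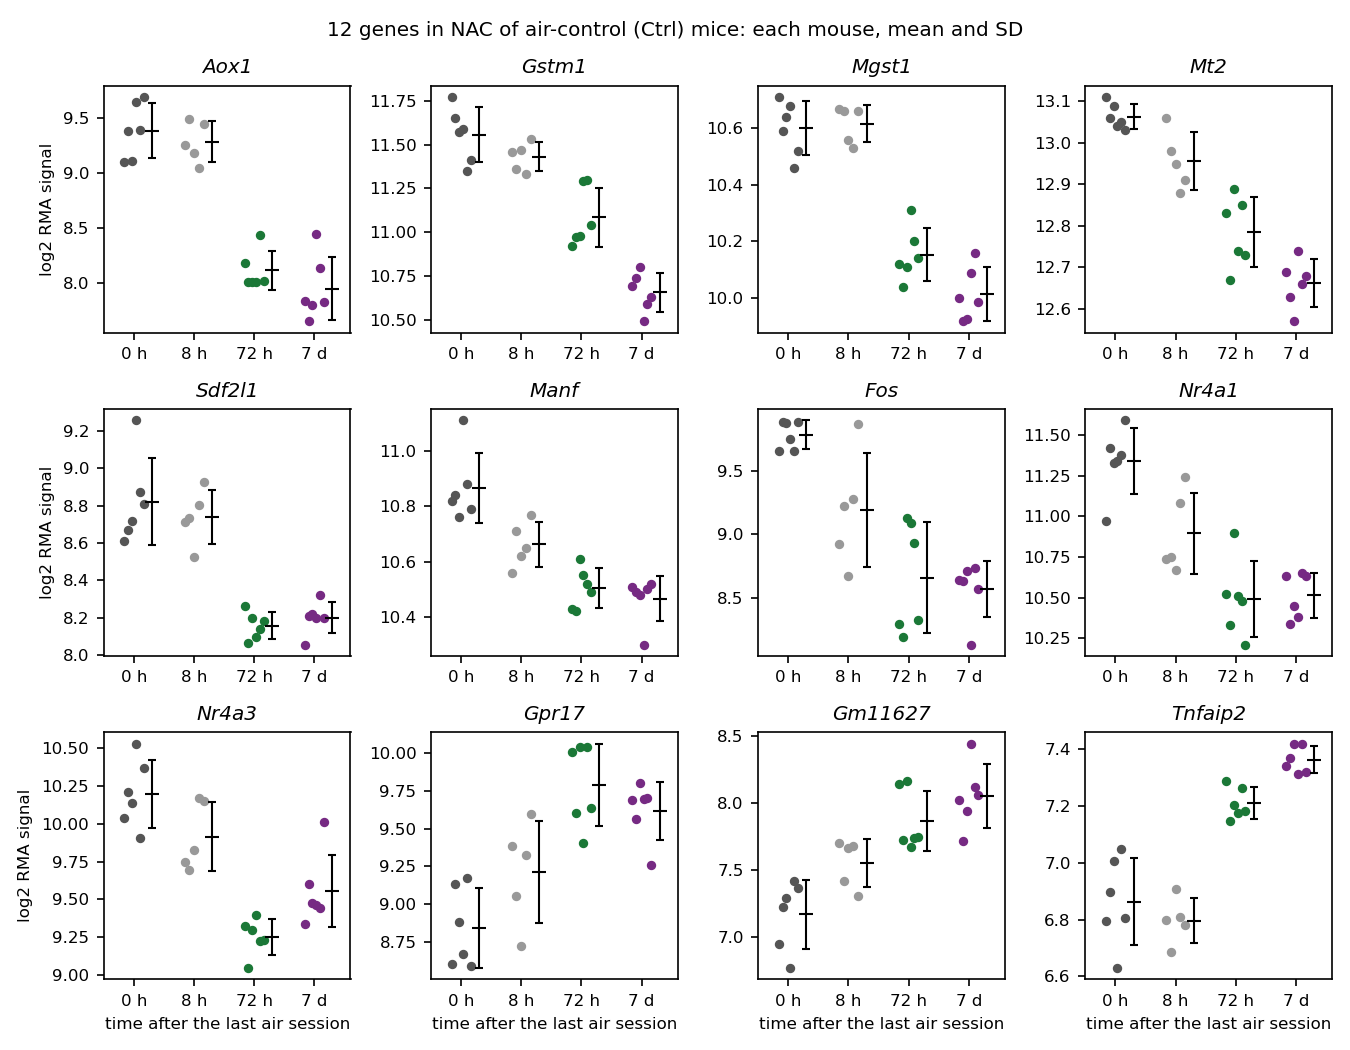
Log2 signal (y axis) of 12 genes in each Ctrl mouse at 0 h, 8 h, 72 h and 7 d after the last air session (x axis), 1 point per array with the mean and SD beside it. In all panels but that of Nr4a3, all 12 arrays of 72 h and 7 d lie on one side of the 6 arrays of 0 h, and the largest separation is in Aox1, with late arrays between 7.65 and 8.44 and 0 h arrays between 9.10 and 9.69.

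Enzymes of foreign-compound metabolism gave the largest fall. Aox1, the aldehyde oxidase that oxidizes aldehydes and nitrogen heterocycles, had a lowest, median and highest log2 signal of 7.65, 8.01 and 8.44 in late mice, against 9.10, 9.38 and 9.69 in 0 h mice. Every late mouse lay below every 0 h mouse by more than the whole spread within 0 h. The change was -1.36 (SE 0.11, 0.391-fold, adjusted p = 4.21e-11), with -1.27 at 72 h and -1.44 at 7 d. Gstm1, a mu-class glutathione transferase, passed with all 4 of its probesets, although RNA of closely related mu-class genes can bind them. At the probeset of smallest p its signal was 10.49, 10.86 and 11.30 in late mice and 11.35, 11.58 and 11.77 in 0 h mice, with no overlap, a change of -0.69 (SE 0.07, 0.622-fold, adjusted p = 1.6e-07). Mgst1, the microsomal glutathione transferase, had 9.92, 10.10 and 10.31 in late mice and 10.46, 10.61 and 10.71 in 0 h mice. It fell by 0.52 on the log2 scale (SE 0.06, adjusted p = 7.11e-07), again without overlap, while its other probeset did not pass (change 0.06). Fmo2, a flavin monooxygenase, passed at 1 of 5 probesets, with a mean log2 signal of 4.90. There it had 4.83, 5.01 and 5.28 in late mice and 4.43, 4.62 and 4.86 in 0 h mice, a change of 0.39 (SE 0.07, adjusted p = 0.00245). Its other probesets had changes of 0.01 to 0.41 (adjusted p of 0.255 or more), with 0.17 at the brightest. The calls of Aox1, Gstm1 and Mgst1 were kept in every fit with an array left out, and that of Fmo2 was lost without mouse 48 or mouse 74 at 0 h (adjusted p up to 0.0243) and in the fit blocked by set (adjusted p = 0.0195).

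Of the 43 measured detoxification and conjugation enzymes, Aox1, Gstm1 and Mgst1 fell, none rose and 40 did not pass, Fmo2 among them, each gene taken at its brightest probeset, where 0.11% of all genes fell and 0.0495% rose. The median change of the list was -0.07, against 0.003 over all genes. Among the members that did not pass, the cytochrome Cyp2e1, which oxidizes ethanol and is a target of pyrazole in liver, had a change of 0.04 (adjusted p = 1), and the glutathione transferases Gsta4 and Gstp1 had changes of -0.18 and 0.08 (adjusted p = 0.836 and 0.985). Gstm1 was also the one call among 22 measured targets of the antioxidant factor Nrf2. Of the others, Slc7a11, the cystine transporter, had -0.43 (adjusted p = 0.0325), the quinone reductase Nqo1 had -0.29 (adjusted p = 0.107) and Gclm, which makes glutathione, had -0.21 (adjusted p = 0.078), and 15 of the 22 were negative with a median of -0.10. None of 17 genes of ethanol, acetaldehyde and acetate metabolism passed in limma, with 3 at an unadjusted p under 0.05. Over all genes, 1173 of 18193 were under that unadjusted p in limma for late against 0 h. That background applies to each such list count below for the same comparison. Rida, which hydrolyses reactive imines, was chosen after its values were seen and fell by 0.40 (SE 0.07, adjusted p = 0.00276). It did not pass without mouse 48, 74 or 78 at 0 h (adjusted p up to 0.0243). Probesets paired with several gene symbols passed too, 3 of them, with changes of -0.96, -0.94 and -0.79, but they name no single gene. The 4 passing probesets with no symbol had changes of -1.05, -0.55, -0.31 and 0.43.

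The metallothioneins Mt1 and Mt2 fell by small amounts. Mt1 had 13.34, 13.41 and 13.57 in late mice against 13.67, 13.71 and 13.75 in 0 h mice, and Mt2 had 12.57, 12.71 and 12.89 against 13.03, 13.06 and 13.11. Neither gene had a late mouse inside the 0 h range. The changes were -0.27 (SE 0.03, adjusted p = 3.87e-06) for Mt1 and -0.34 (SE 0.04, adjusted p = 8.25e-06) for Mt2. Both were larger in size at 7 d (-0.32 and -0.40) than at 72 h (-0.22 and -0.28), but in neither did 7 d less 72 h pass (adjusted p = 0.872 for both). A second probeset of Mt1 had a change of -0.05 (adjusted p = 1). Mt3, the metallothionein of neurons, did not pass (-0.10, adjusted p = 1), and Mt1 and Mt2 were the 2 calls among 9 measured genes of metal binding and transport. They were also the only 2 of 22 glucocorticoid-responsive genes that passed. Fkbp5, Sgk1 and Tsc22d3, standard readouts of the glucocorticoid receptor, had changes of -0.03, -0.17 and 0.05 (adjusted p = 1 for each).

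ER chaperones made up a further group of falls. A box for the factors ATF6 and XBP1, the ER stress response element (ERSE; CCAAT and CCACG with 9 bases of any kind between them, on either strand), occurs in the 250 bases before the start of 8 of the 23 listed ER genes in the promoter table (34.8%), against 35 of all 27025 genes (0.13%). Of the 8, Hspa5, Pdia6 and Calr fell, and Hsp90b1, Canx, Dnajc3, Creld2 and Syvn1 did not pass. Sdf2l1, which had the largest fall of the list, is in the table without a match. The promoters of the 3 that fell are shown to place the element. They are from RefSeq, build GRCm38.p6, 5′ to 3′ along each gene, with the element in capitals (Pdia6, chr12:17266339-17266588, plus strand; Hspa5, chr2:34771840-34772089, plus strand; Calr, chr8:84846932-84847181, minus strand). The match begins 98 bases before the start in Pdia6, 65 in Hspa5 and 162 in Calr, where it lies on the opposite strand. A match describes the letters and is not a measured site.
Pdia6: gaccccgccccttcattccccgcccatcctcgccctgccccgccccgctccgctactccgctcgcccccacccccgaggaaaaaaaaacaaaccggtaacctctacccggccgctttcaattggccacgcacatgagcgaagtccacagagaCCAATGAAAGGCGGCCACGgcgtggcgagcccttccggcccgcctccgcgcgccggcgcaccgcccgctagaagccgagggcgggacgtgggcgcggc
Hspa5: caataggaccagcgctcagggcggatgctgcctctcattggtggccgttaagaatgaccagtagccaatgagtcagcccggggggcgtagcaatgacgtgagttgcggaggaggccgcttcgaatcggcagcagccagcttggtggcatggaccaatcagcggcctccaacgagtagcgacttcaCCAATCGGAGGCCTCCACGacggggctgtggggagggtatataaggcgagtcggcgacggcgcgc
Calr: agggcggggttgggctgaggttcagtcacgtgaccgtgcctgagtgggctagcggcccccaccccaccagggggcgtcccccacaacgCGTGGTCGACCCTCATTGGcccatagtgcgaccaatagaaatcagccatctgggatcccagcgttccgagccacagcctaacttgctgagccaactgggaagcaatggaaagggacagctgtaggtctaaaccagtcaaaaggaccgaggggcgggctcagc

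The ER gene with the largest change was Sdf2l1, which acts with the chaperone BiP. Its signal was 8.06, 8.20 and 8.32 in late mice, against 8.61, 8.76 and 9.26 in 0 h mice, with no overlap, a fall of 0.64 on the log2 scale (SE 0.07, 0.641-fold, adjusted p = 1.6e-07) that was about as large at 72 h (-0.66) as at 7 d (-0.62). Manf, a secreted factor released under ER stress, had 10.30, 10.50 and 10.61 in late mice and 10.76, 10.83 and 11.11 in 0 h mice, a change of -0.38 (SE 0.05, adjusted p = 2.64e-06). The disulfide isomerase Pdia6 had 9.99, 10.19 and 10.33 in late mice and 10.35, 10.43 and 10.67 in 0 h mice (change -0.28, SE 0.05, adjusted p = 0.00409). Hspa5, which encodes BiP itself, had 11.93, 12.15 and 12.24 in late mice and 12.25, 12.40 and 12.58 in 0 h mice, groups that met without overlapping, with a change of -0.29 (SE 0.06, adjusted p = 0.00994). Calr, the lectin chaperone calreticulin, chosen after its values were seen, passed at 1 of 3 probesets (change -0.26, SE 0.04, adjusted p = 0.00104) and at its brightest had -0.24 (adjusted p = 0.0133).

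Of 25 measured ER genes, 4 fell (Sdf2l1, Manf, Pdia6 and Hspa5), none rose and 21 did not pass, 20 of the 25 were negative and the median was -0.09, where 0.11% of all genes fell and 48.1% were negative. The members that fell were folding enzymes and secreted or resident chaperones. The transcription factors of the stress response, Atf4, Xbp1 and Ddit3, had changes of -0.03, -0.04 and 0.08 (adjusted p = 1, 1 and 0.938), and Atf5 had -0.44 (adjusted p = 0.0302). Averaged over the list, the level of each array relative to all arrays was between -0.144 and -0.0545 in late mice and between -0.00481 and 0.174 in 0 h mice, so that no late mouse reached the lowest 0 h mouse. Sdf2l1 and Manf passed in every fit with an array left out and in the fit blocked by set. Hspa5 failed in 16 of the 18 fits with an array left out, all but those without mouse 20 at 0 h or mouse 80 at 7 d (adjusted p up to 0.0758), Pdia6 without mouse 20, 38 or 48 at 0 h (up to 0.0388), and the count of 4 dropped to 2 without mouse 38 or mouse 48 and with the block (adjusted p = 0.0134 for Hspa5 and 0.0929 for Pdia6). Calr failed without mouse 48 (0.0126). Of the cytosolic heat shock genes, 0 of 17 passed in limma, with 6 at an unadjusted p under 0.05.

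**Figure D2:**
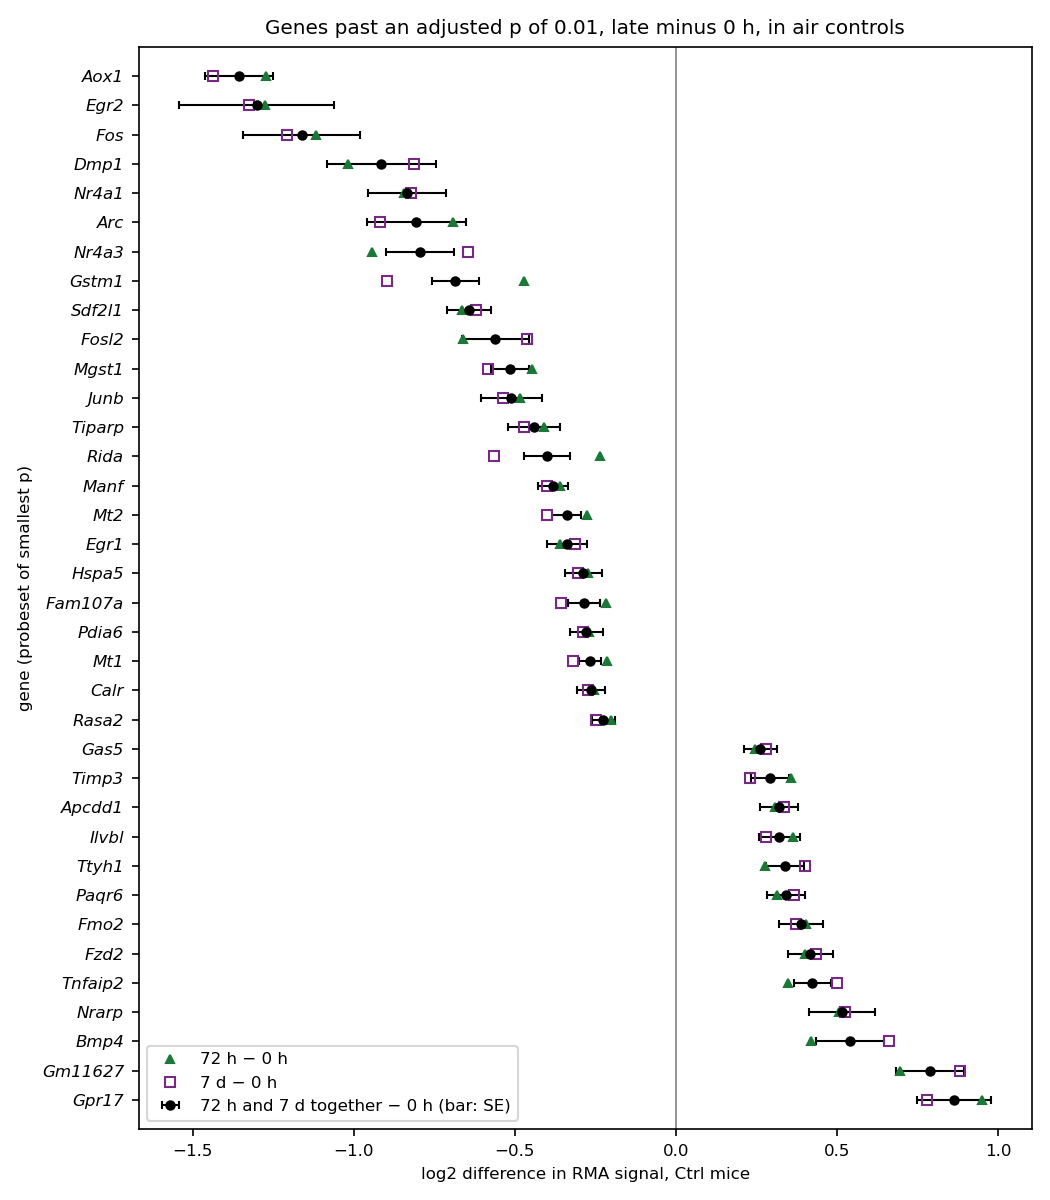
Log2 change against 0 h (x axis) of the 36 genes that passed (y axis, each at its probeset of smallest p), for both late times together (black, bar: SE), 72 h (triangles) and 7 d (open squares). For every gene the 72 h and 7 d symbols lie on the same side of 0, and the changes run from -1.36 in Aox1 to 0.86 in Gpr17. Genes were selected on the mean of the 72 h and 7 d changes, so the shared side is largely set by the selection.

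Immediate early genes were the largest group among the falls. The letters TGACG, the core of the cAMP response element bound by CREB, were found on either strand in the 250 bases before the start of 15 of the 19 listed immediate early genes in the promoter table (78.9%), against 19.8% of all genes. The full palindrome TGACGTCA was in 2 of the 19 (Btg2 and Maff) and in 1.77% of all genes, and every palindrome also holds this core. Shown are the promoters of the 3 genes of this group with the smallest p among those in the table, with each match in capitals (TGACG, or CGTCA where it lies on the opposite strand), from RefSeq, build GRCm38.p6 (Nr4a3, chr4:48045055-48045304, plus strand; Nr4a1, chr15:101266596-101266845, plus strand; Fos, chr12:85473640-85473889, plus strand). Nr4a3 and Nr4a1 hold 4 such matches each and Fos holds 2. Of the 15 genes with a match, Fos, Junb, Egr2, Nr4a1 and Nr4a3 fell. The others, Fosb, Egr4, Npas4, Nr4a2, Btg2, Klf4, Maff, Atf3, Homer1 and Ccn1, did not pass. Fosl2, which fell, is in the table without a match.
Nr4a3: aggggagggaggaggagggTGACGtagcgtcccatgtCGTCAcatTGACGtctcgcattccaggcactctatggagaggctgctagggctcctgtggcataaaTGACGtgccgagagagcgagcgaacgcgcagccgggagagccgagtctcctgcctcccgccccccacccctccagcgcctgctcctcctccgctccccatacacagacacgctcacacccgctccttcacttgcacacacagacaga
Nr4a1: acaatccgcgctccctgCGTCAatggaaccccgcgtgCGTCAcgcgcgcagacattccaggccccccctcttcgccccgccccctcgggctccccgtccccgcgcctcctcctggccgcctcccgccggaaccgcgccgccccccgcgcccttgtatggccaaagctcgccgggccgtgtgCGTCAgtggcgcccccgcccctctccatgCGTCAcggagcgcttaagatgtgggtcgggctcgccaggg
Fos: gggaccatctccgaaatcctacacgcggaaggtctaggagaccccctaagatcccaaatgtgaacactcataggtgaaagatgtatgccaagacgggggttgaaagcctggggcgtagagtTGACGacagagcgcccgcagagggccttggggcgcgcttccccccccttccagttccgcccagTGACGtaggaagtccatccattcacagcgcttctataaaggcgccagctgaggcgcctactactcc

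Fos, a subunit of the AP-1 transcription factor, had 8.14, 8.64 and 9.13 in late mice, against 9.65, 9.81 and 9.88 in 0 h mice. The 6 mice of 0 h lay close together, all above the highest late mouse. The change was -1.16 (SE 0.18, 0.447-fold, adjusted p = 0.000316). Egr2, a zinc finger factor, had 5.61, 6.23 and 6.83 in late mice and 7.13, 7.56 and 8.08 in 0 h mice, a change of -1.30 (SE 0.24, adjusted p = 0.00409) seen at both of its probesets. The orphan nuclear receptor Nr4a1 had 10.21, 10.50 and 10.90 in late mice and 10.97, 11.36 and 11.59 in 0 h mice (change -0.83, SE 0.12, adjusted p = 8.02e-05). For its relative Nr4a3 1 late mouse reached into the 0 h range: signals were 9.05, 9.37 and 10.01 in late mice and 9.90, 10.17 and 10.53 in 0 h mice (change -0.79, SE 0.11, adjusted p = 1.08e-05). Its other probesets had changes of -0.04 and 0.00. Arc, whose protein acts at dendrites in synaptic plasticity, had 8.32, 8.72 and 9.37 in late mice and 9.35, 9.55 and 9.70 in 0 h mice (change -0.81, SE 0.15, adjusted p = 0.00624), groups that overlapped at 1 late mouse.

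The AP-1 genes Junb and Fosl2 and the zinc finger gene Egr1 fell less. Junb had 7.57, 7.99 and 8.28 in late mice and 8.46, 8.51 and 8.66 in 0 h mice (change -0.51, SE 0.10, adjusted p = 0.00469), and Egr1 had 12.19, 12.36 and 12.61 in late mice and 12.65, 12.73 and 12.81 in 0 h mice (change -0.34, SE 0.06, adjusted p = 0.00294). Both were without overlap. Fosl2, with 8.04, 8.35 and 8.78 in late mice and 8.68, 8.93 and 9.14 in 0 h mice, overlapped slightly (change -0.56, SE 0.10, adjusted p = 0.00409). Of 26 measured immediate early genes, 8 fell, none rose and 18 did not pass, 24 of 26 were negative (48.1% over all genes), and the median was -0.28. Members that did not pass included Npas4, a neuronal factor induced by calcium (-0.47, adjusted p = 0.699), Fosb (-0.32, adjusted p = 0.889), Egr4 (-0.34, adjusted p = 0.0154), Jun (0.01) and the Homer1 probeset (-0.02). Nr4a2 had -0.76 at 72 h and 0.15 at 7 d, neither past the test. Averaged over the 26 genes, the level relative to all arrays was -0.298 to 0.0714 in late mice and 0.136 to 0.312 in 0 h mice, without overlap.

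Several calls in this group depended on single mice of 0 h. The count of 8 dropped to 3 without mouse 48 or mouse 78 at 0 h, to 4 without mouse 74 and to 5 without mouse 30 or mouse 38, to 3 in the fit blocked by set, and to 2 when the 4 arrays that stand apart were left out. Fos, Nr4a1 and Nr4a3 passed without each of the 18 arrays, and Arc failed in 10 of these fits (adjusted p up to 0.0298): without mouse 30, 38, 48, 74 or 78 at 0 h, mouse 6, 24 or 68 at 72 h, or mouse 36 or 62 at 7 d. Egr2 failed without mouse 30, 48 or 78 at 0 h (up to 0.0283), Egr1 without mouse 48, 74 or 78 (up to 0.0199), Fosl2 without mouse 38, 48, 74 or 78 (up to 0.036) and Junb without mouse 30, 38, 48, 74 or 78 at 0 h or mouse 6 at 72 h (up to 0.027). With the block, Egr1, Egr2 and Fosl2 had an adjusted p of 0.0171 each, Arc 0.0233 and Junb 0.0284. Genes of ERK feedback, which immediate early signalling also induces, gave 0 of 15 calls in limma, with 5 at an unadjusted p under 0.05, among them the phosphatase Dusp1 (-0.36, adjusted p = 0.0133). Tiparp, a mono-ADP-ribosyltransferase induced through the aryl hydrocarbon receptor, and Rasa2, which turns off Ras, were chosen after their values were seen and fell. Tiparp had a change of -0.44 (SE 0.08, adjusted p = 0.00409), and that of Rasa2 was -0.23 (SE 0.04, adjusted p = 0.000502, or 0.0113 when blocked by set). Tiparp failed without mouse 30, 48, 74 or 78 at 0 h (adjusted p up to 0.0298). Dmp1, a phosphoprotein known from bone matrix, had 6.12, 6.65 and 7.26 in late mice and 7.10, 7.44 and 8.34 in 0 h mice (change -0.91, SE 0.17, adjusted p = 0.00409), and failed without mouse 48, 74 or 78 (up to 0.0456).

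Among the rises, Gpr17, a receptor that marks oligodendrocyte precursors as they commit to differentiate, was the largest. It had 9.26, 9.69 and 10.04 in late mice, against 8.59, 8.77 and 9.18 in 0 h mice, without overlap. The change was 0.86 (SE 0.12, 1.82-fold, adjusted p = 1.11e-05), with 0.95 at 72 h and 0.78 at 7 d. In tissue RNA, more cells of a type and more RNA per cell cannot be told apart. Gpr17 was the 1 call among 10 measured precursor markers, all 10 of which were positive, with a median of 0.16. Pdgfra, the growth factor receptor of early precursors, had 0.31 (adjusted p = 0.0785), and Bcas1, of newly differentiating cells, had 0.48 (adjusted p = 0.473). Of 19 measured oligodendrocyte and myelin markers, 0 passed in limma, with 7 at an unadjusted p under 0.05, although all 19 were positive with a median of 0.38. Mbp, the main myelin basic protein gene, had 0.05 (adjusted p = 1), and Mog and Gpr37 had 0.53 and 0.56 (adjusted p = 0.882 and 0.73). The level of the myelin list ranged between -0.863 and 0.741 in late mice and between -0.563 and 0.0825 in 0 h mice, so the groups overlapped widely. Mouse 20 held the lowest 0 h value, and the list's median was 0.28 without it. The part of these differences between mice in the Gpr17 result was not tested. Gpr17 passed in every setting tried.

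Further rises were in signalling genes. Bmp4, a bone morphogenetic protein, had 6.31, 6.80 and 7.20 in late mice and 6.06, 6.30 and 6.44 in 0 h mice, overlapping at 1 late mouse (change 0.54, SE 0.11, adjusted p = 0.008). Nrarp, a feedback inhibitor of Notch signalling, had 10.08, 10.33 and 10.47 in late mice and 9.27, 9.96 and 10.06 in 0 h mice (change 0.52, SE 0.10, adjusted p = 0.00994), and Fzd2, a receptor for Wnt ligands, had 8.34, 8.59 and 8.86 in late mice and 7.97, 8.24 and 8.34 in 0 h mice (change 0.42, SE 0.07, adjusted p = 0.00144). Nrarp and Fzd2 were the 2 calls among 20 measured genes of the list of Notch pathway and target genes, where 0.0495% of all genes rose. As Fzd2 is a Wnt receptor, only Nrarp of the 2 stands for Notch signalling. Nrarp passed at 1 of its 2 probesets (other 0.24), Fzd2 at 1 of 3 (others 0.19 and 0.22). The receptors Notch1, Notch2 and Notch3 and the targets Hes1 and Hes5 had changes of 0.06, 0.02, 0.21, -0.13 and 0.22 and did not pass. Apcdd1, an inhibitor of Wnt signalling, passed at 1 of 6 probesets (0.32, SE 0.06, adjusted p = 0.0036), with the others between 0.07 and 0.30. Of these, Nrarp passed with an array left out only without mouse 20, 30 or 74 at 0 h or mouse 44 or 52 at 72 h (adjusted p up to 0.0956), Bmp4 only without mouse 20 at 0 h, mouse 24 or 44 at 72 h or mouse 28 or 77 at 7 d (up to 0.0435). Fzd2 failed without mouse 48 at 0 h (0.0161) and Apcdd1 without mouse 30, 48 or 78 (up to 0.0273). In the fit blocked by set none of the 4 passed (adjusted p = 0.0233, 0.0262, 0.0129 and 0.0233 for Bmp4, Nrarp, Fzd2 and Apcdd1). The list's count of 2, Nrarp and Fzd2, was 0 without mouse 48 at 0 h.

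Tnfaip2, a gene induced by tumour necrosis factor, and Gm11627 also rose. Tnfaip2 had 7.15, 7.30 and 7.42 in late mice and 6.63, 6.85 and 7.05 in 0 h mice, without overlap (change 0.42, SE 0.06, adjusted p = 1.42e-05), at 1 of its 3 probesets. Gm11627, a predicted gene, had 7.67, 7.98 and 8.44 in late mice and 6.77, 7.25 and 7.42 in 0 h mice (change 0.79, SE 0.10, adjusted p = 1.05e-05). Both passed in every setting tried. Smaller rises, each at the probeset of smallest p, were in Ttyh1, which encodes an anion channel of neural cells (0.34, SE 0.06, adjusted p = 0.00195), Paqr6, a membrane receptor for progestins (0.34, SE 0.06, adjusted p = 0.00204), Ilvbl (0.32, SE 0.06, adjusted p = 0.0099) and Timp3, an inhibitor of matrix metalloproteinases (0.29, SE 0.06, adjusted p = 0.00994). Ttyh1 and Timp3 passed at 1 of 4 probesets each, and their others had changes of 0.05 to 0.10 and of 0.08 to 0.33. Ilvbl passed at 1 of 2 (other 0.05). Ilvbl and Timp3 failed in 14 and 13 of 18 fits with an array left out (adjusted p up to 0.0584 and 0.0525). Paqr6 failed without mouse 48 at 0 h (adjusted p = 0.023) and Ttyh1 without mouse 30 or mouse 48 (up to 0.0143). Gas5, a noncoding host of small nucleolar RNAs, and Fam107a, an actin-binding protein of astrocytes and neurons, were also chosen after their values were seen. Gas5 passed at 1 of 4 probesets (0.26, SE 0.05, adjusted p = 0.00994), while the others had changes of 0.03, 0.05 and 0.08. Fam107a passed at 1 of 3 (-0.29, SE 0.05, adjusted p = 0.00209), and the others had -0.20 and -0.31. Gas5 failed in 14 of 18 fits (adjusted p up to 0.0629) and Fam107a without mouse 48 or 78 at 0 h (up to 0.0183).

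At each late time on its own, fewer probesets passed. At 72 h, 22 passed (0.0488%), 4 higher (0.00888%) and 18 lower (0.04%). At 7 d, 36 passed (0.0799%), 10 higher (0.0222%) and 26 lower (0.0577%). The 2 comparisons share the 6 arrays of 0 h and are set side by side only as values. Of the 49 probesets, 20 passed at 72 h, 30 at 7 d and 17 at both. All 49 had the same sign at both times, and 36 were larger in size at 7 d. The 49 were selected on the mean of these 2 changes. Their shared sign is therefore largely set by the selection and is no separate evidence that the times agree. Genes that passed at both times were Aox1, Gstm1 and Mgst1, Mt1 and Mt2, Sdf2l1 and Manf, Gpr17 and Gm11627, and among immediate early genes Fos, Nr4a1 and Nr4a3. Egr2 passed at neither time alone (adjusted p = 0.0482 at 72 h and 0.0242 at 7 d), nor did Nrarp, Hspa5 or Pdia6. Fosl2 passed at 72 h (-0.66, adjusted p = 0.00604) and not at 7 d (-0.46, adjusted p = 0.156), and Arc at 7 d (-0.92, adjusted p = 0.00884) and not at 72 h (-0.69, adjusted p = 0.174). The count at 72 h was 10 without mouse 48 at 0 h or mouse 68 at 72 h, 11 without mouse 6, 12 without mouse 78 and 13 without mouse 24 or 34. That at 7 d was 22 without mouse 62 and 23 without mouse 28.

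Tested against each other, 7 d and 72 h gave 0 calls in limma (0%), with 2 probesets (0.00444%) at an adjusted p of 0.05 and 2462 at an unadjusted p under 0.05. With weights for array quality 4 passed, and 1 passed without mouse 52 at 72 h or without mouse 80 at 7 d. The smallest p was that of 9630013A20Rik, which had 4.90, 6.51 and 6.94 at 7 d, against 3.98, 4.22 and 5.32 at 72 h (7 d less 72 h 1.82, SE 0.31, adjusted p = 0.0195). The 0 h mice lay between 4.73 and 6.07. Ogn, a matrix proteoglycan of the meninges, had -0.41 (adjusted p = 0.0855), Hrh2, the histamine H2 receptor, had 0.30 (adjusted p = 0.103) and AI854703 had 0.21 (adjusted p = 0.103). Gstm1 had 10.49, 10.66 and 10.80 at 7 d, against 10.92, 11.01 and 11.30 at 72 h, without overlap (7 d less 72 h -0.43, SE 0.08, adjusted p = 0.0855). It was thus lowest in all mice of 7 d without passing the test over all probesets.

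Ctrl mice at 8 h stood nearer to 0 h than to the late times for most of these genes, and the pattern varied by group. By the stated times, 72 h and 7 d are whole days after the session and 8 h is not. At 8 h, time of day therefore cannot be told apart from time since the session. For 8 h less 0 h, 6 of 20 circadian clock genes were at an unadjusted p under 0.05 in limma. Of 17 cytosolic heat shock genes 8 were, and all 17 were positive. Over all genes, 807 of 18193 were under that unadjusted p. Between 8 h and 0 h, 0 probesets passed in limma (0%; 1 at an adjusted p of 0.05, which is 0.00222%, and 2264 at an unadjusted p under 0.05), and late against 8 h, a comparison added after the data were seen, gave 108 (0.24%), 25 higher (0.0555%) and 83 lower (0.184%). Of the 49, 23 also passed late against 8 h with the same sign, and in 42 the size of the difference between 8 h and 0 h was under 50% of the late change. These comparisons reuse the late or the 0 h arrays on which the 49 were selected. Both counts therefore depend in part on the selection and are no separate evidence. No share over all probesets was taken for the 42. Aox1 had 9.05, 9.26 and 9.49 at 8 h, within reach of 0 h (8 h less 0 h -0.10, adjusted p = 0.963), and late against 8 h was -1.26 (adjusted p = 3.44e-09). Gstm1, Mgst1 and Sdf2l1 behaved alike, with 8 h less 0 h of -0.12, 0.02 and -0.08 and late less 8 h of -0.56, -0.53 and -0.56 (adjusted p = 1.89e-05, 2.41e-06 and 8.46e-06). Of the immediate early genes that passed, Fos and Nr4a1 lay between: Fos had 8.67, 9.22 and 9.86 at 8 h and Nr4a1 10.67, 10.75 and 11.24, with 8 h less 0 h of -0.59 and -0.45 and late less 8 h of -0.57 and -0.39, none of which passed. Fosl2 stayed at its 0 h level at 8 h (8 h less 0 h 0.01, adjusted p = 1) and was lower in late mice than at 8 h (-0.57, adjusted p = 0.00474). For Junb, 8 h less 0 h was -0.51 (adjusted p = 0.169) and late less 8 h was 0.00. Gpr17 was intermediate, with 8.72, 9.32 and 9.60 at 8 h.

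**Figure D3:**
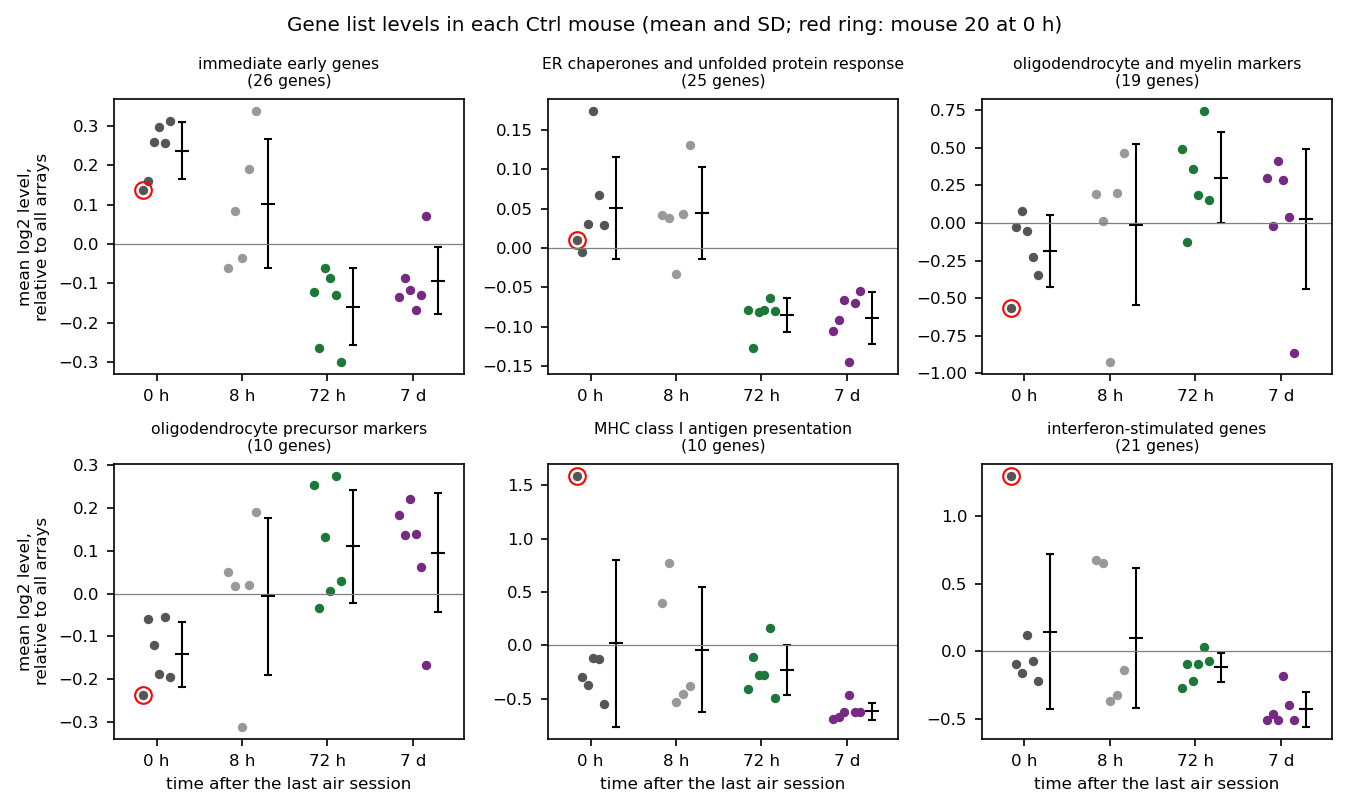
Mean log2 level of 6 gene lists relative to all arrays (y axis) in each Ctrl mouse at 0 h, 8 h, 72 h and 7 d (x axis), with mean and SD, and mouse 20 at 0 h ringed. Immediate early genes and ER genes have all late arrays below all 0 h arrays, the myelin list overlaps, and in the MHC class I and interferon lists mouse 20 lies at 1.58 and 1.29.

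Antigen presentation and interferon genes were high in 1 mouse of 0 h. The MHC class I list had a median change of -0.42 and the interferon list one of -0.40, yet 0 of 10 and 0 of 21 genes passed in limma, with 4 and 13 at an unadjusted p under 0.05. Mouse 20 at 0 h, which belonged to no inferred set, held the highest 0 h values, with H2-K1 at 12.85 and H2-D1 at 12.99, where the late mice reached at most 11.33 and 12.01. Its ependymal genes Tmem212 (9.61) and Ccdc153 (8.21) also exceeded every late mouse (at most 7.01 and 6.69). Without mouse 20 the medians were -0.06 and -0.19. The MHC class I level was -0.492 to 0.159 in 72 h mice and -0.691 to -0.464 in 7 d mice, against -0.547 to -0.115 in the other 0 h mice. The list's median change, mouse 20 included, was -0.18 at 72 h (0 of 10 at an unadjusted p under 0.05) and -0.76 at 7 d (7 of 10), with 0 of 10 passing in limma at either time. Within the late group the interferon list ranged between -0.511 and -0.184 at 7 d. At 72 h it ranged between -0.27 and 0.0304, and the ranges overlapped. The other 0 h mice lay between -0.221 and 0.123. The interferon list's median change, mouse 20 included, was -0.25 at 72 h (3 of 21 at an unadjusted p under 0.05). At 7 d it was -0.58 (15 of 21), with 0 of 21 passing in limma at either time. Over all 18193 genes, 1231 at 72 h and 1108 at 7 d were under that unadjusted p. The count of 49 was 52 without mouse 20.

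Most other lists held no call. Of 42 lists with 792 genes, 34 had none, and 22 of the 36 called genes were in a list. The hour of tissue collection is not known, although the stated 72 h and 7 d are whole days after the session. The circadian clock list had 0 of 20 calls in limma and 4 at an unadjusted p under 0.05, with changes between -0.22 and 0.28. Its most time-dependent members Dbp, Per2, Nr1d1 and Arntl had changes of 0.15, 0.08, 0.07 and -0.15 (adjusted p = 0.782, 1, 1 and 0.641). Medium spiny neuron markers had 0 of 22 calls and 0 at an unadjusted p under 0.05, with a median of -0.03. Astrocyte markers had 0 of 20, with 8 at an unadjusted p under 0.05. In that list Etnppl and Gjb6, of mature astrocytes, came nearest to passing (-0.90 and -0.52, adjusted p = 0.0105 for both), with 8.42 to 9.50 in late mice against 9.39 to 10.09 in 0 h mice for Etnppl, and Gfap had -0.22 (adjusted p = 1). At 7 d alone Gjb6 fell (-0.62, adjusted p = 0.00914) and Etnppl had -1.04 (adjusted p = 0.0135), against -0.42 and -0.76 at 72 h (adjusted p = 0.36 and 0.279).

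The same interval in CIE mice, measured on other arrays, sets these values beside animals that also left ethanol vapor. There 1341 probesets passed for late against 0 h (2.98%), 725 of them higher (1.61%) and 616 lower (1.37%). Of the 49 Ctrl probesets, 43 had the same sign in CIE mice and 28 also passed there. The 43 were 30 of the 35 lower and 13 of the 14 higher, of which 21 and 7 passed. Over all genes at their brightest probeset, 9183 of 18193 were negative in CIE mice. The difference between the changes, CIE less Ctrl, passed for 174 probesets of 45037 (0.386%; 0.209% higher, 0.178% lower), 4 of them among the 49. The count of 174 was 83 without CIE mouse 5 at 0 h, 96 without CIE mouse 26 at 0 h and 110 without Ctrl mouse 30 at 0 h. For Aox1 the change was -1.05 in CIE mice (adjusted p = 8.72e-09) and -1.36 in Ctrl mice, a difference of 0.30 (SE 0.15, adjusted p = 0.507). Mgst1, Gstm1, Mt1, Mt2, Sdf2l1 and Manf also fell in CIE mice, by 0.65, 0.49, 0.27, 0.32, 0.47 and 0.31, and Gpr17 rose by 0.96. For none of these did the difference from Ctrl pass (CIE less Ctrl between -0.14 and 0.20, adjusted p of 0.532 or more).

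The 4 of the 49 for which the arms differed were immediate early genes. The 49 were selected on the Ctrl change, which this difference subtracts. The selection therefore favours a large difference among them, and the sizes below may be too large. Arc had a change of 0.42 in CIE mice, against -0.81 in Ctrl mice, a difference of 1.23 (SE 0.22, adjusted p = 0.00141). Nr4a1 had 0.13 in CIE and -0.83 in Ctrl mice (difference 0.97, SE 0.17, adjusted p = 0.0015), Egr1 0.19 in CIE and -0.34 in Ctrl mice (difference 0.52, SE 0.09, adjusted p = 0.00062), and Nr4a3 -0.01 in CIE and -0.79 in Ctrl mice (difference 0.79, SE 0.15, adjusted p = 0.00294), which was lost in the fit blocked by set, with array weights or with 4 arrays left out (adjusted p up to 0.0143). Fos had 0.02 in CIE and -1.16 in Ctrl mice, and its difference of 1.18 (SE 0.26, adjusted p = 0.0107) did not pass. Fos was at 7.99, 8.65 and 9.62 in late CIE mice and at 8.16, 8.65 and 9.36 in 0 h CIE mice, Nr4a1 at 10.11, 10.50 and 10.95 in late CIE mice and at 9.82, 10.39 and 10.92 in 0 h CIE mice. Both ranges of 0 h CIE mice lay below all 6 Ctrl mice of 0 h. The difference was higher in CIE for 4 of the 26 genes, where 0.225% of all genes were, and lower for 0 (0.247% of all genes). Over the 26 genes the median change was -0.02 in CIE mice and -0.28 in Ctrl mice. In the glucocorticoid list 18 of 22 genes fell in CIE mice (1.88% of all genes fell there and 2.01% rose) and 2 in Ctrl mice, and the difference was lower in CIE for 5. Over all genes, the smallest p of the difference were those of Fcrls, a microglial receptor (1.42 in CIE, 0.17 in Ctrl mice), Emcn, of endothelium (0.61 and 0.06), and the splicing factor Srsf6 (0.46 and -0.10), none of which passed in Ctrl mice.

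**Figure D4:**
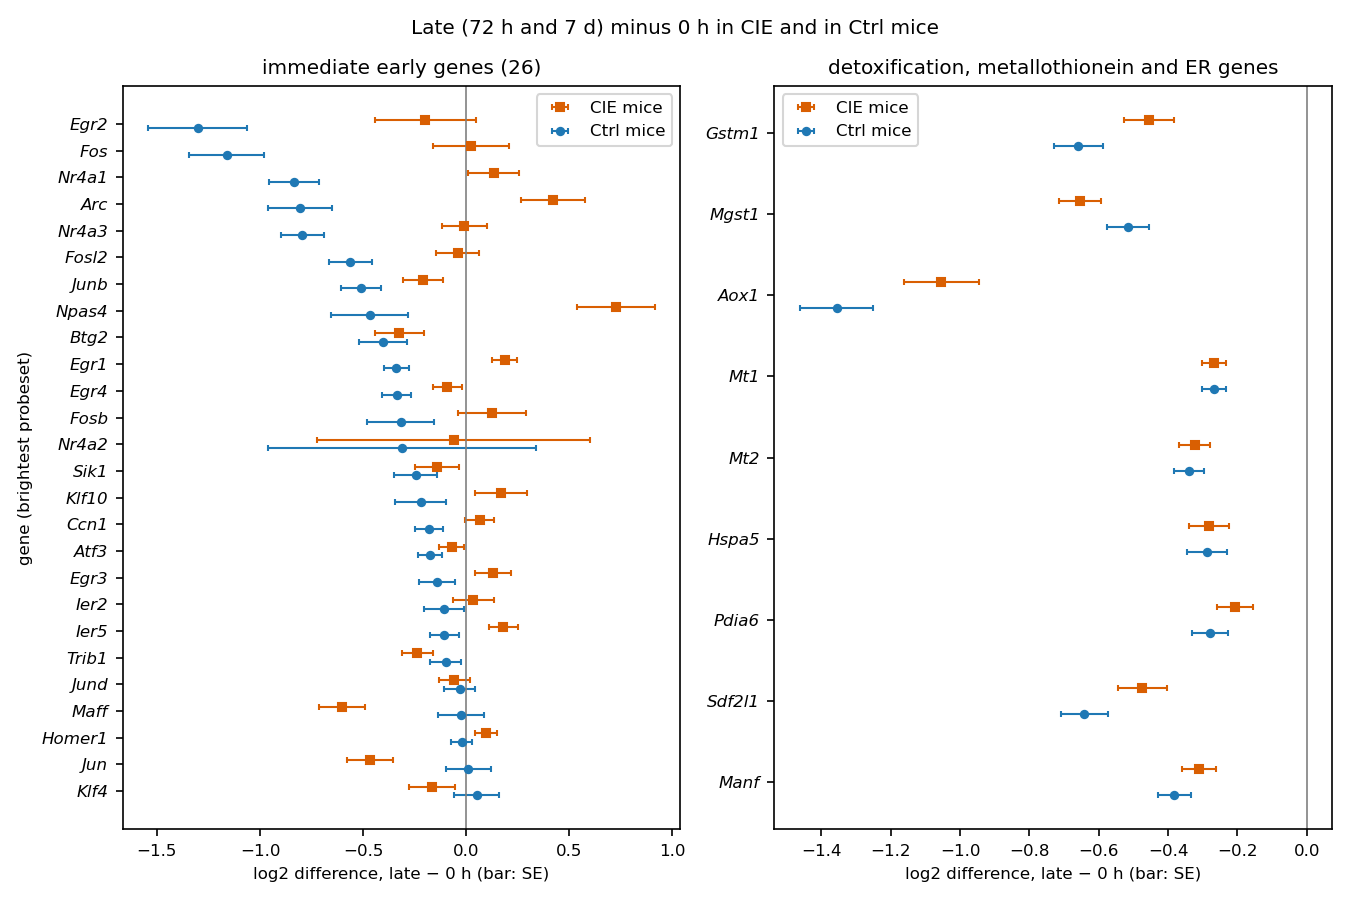
Log2 change of late against 0 h mice (x axis, bars: SE) in CIE mice (squares) and Ctrl mice (circles) for 26 immediate early genes and for 9 detoxification, metallothionein and ER genes, each at its brightest probeset (y axis). In the left panel Ctrl changes reach -1.30 while CIE changes have a median of -0.02, and in the right panel both arms are negative for every gene.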

How the data were processed

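NAC RNA was hybridized to Affymetrix mouse genome arrays, 1 mouse per array. The authors deposited log2 signals. By their methods and processing notes, arrays of a hybridization batch were summarized by RMA, all arrays were then quantile normalized, and ComBat removed batch differences, which can also shrink or leave group differences. No source used here gives the RMA version, and no probeset was filtered here. Arrays have no count depth, and their number limits the precision. Labels gave groups but no batch. Arrays sharing at least 5 exactly equal values (tolerance 2e-08) were taken as sets, which may or may not be the hybridization batches, and mouse 20 at 0 h joined none. In the fit with sets as a block, mouse 20 was a level of its own and did not enter the changes against 0 h. limma 3.58.1 (R 4.3.3) was fitted to all 45 arrays with 8 group means, Benjamini-Hochberg adjustment over 45037 probesets and a threshold of 0.01. It was tested on simulated data. Lists used each gene's brightest probeset. Members, lists and naming rules (12 largest rises and falls, 4 per list, 5 of smallest p elsewhere) were chosen with earlier results of these data known. No set test was run. Each array was left out in turn, and other normalizations, filters, weights, thresholds and sets of arrays were tried, 2 of them chosen after seeing the data. Promoters (250 bases before the start) came from RefSeq, GRCm38.p6, searched on both strands.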

Additional observations from a re-analysis of the deposited data

Results flagged for a closer look

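Among 138 groups of arrays tested for a far value in a named gene, 8 held one, and chance marks about 1 in 20. Mouse 62 at 7 d, the array with the most probesets over 1 log2 unit from the median, had the lowest Fos (8.14), the highest Mt1 (13.48) and the lowest Manf (10.3) of its group. Mouse 48 at 0 h had the highest Manf (11.11), and it is the array whose omission took the most calls from the late comparison. Others were Egr1 in mouse 80 at 7 d (highest, 12.61), Tiparp in mouse 34 at 72 h (highest, 9.87), 9630013A20Rik in mouse 20 at 0 h (lowest, 4.73) and Srsf6 in mouse 36 at 7 d (lowest, 11.15).

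Over all 45037 probesets, 174 passed the limma test of the difference in change between the arms, CIE less Ctrl. Among the genes named by the rules, 9 passed it: Nr4a1 (0.97, adjusted p = 0.0015), Arc (1.23, adjusted p = 0.00141), Nr4a3 (0.79, adjusted p = 0.00294), Egr1 (0.52, adjusted p = 0.00062), Fcrls (1.24, adjusted p = 3.37e-07), Emcn (0.55, adjusted p = 3.37e-07), Srsf6 (0.55, adjusted p = 9.85e-07), P4ha1 (0.53, adjusted p = 2.96e-05) and Cep41 (0.67, adjusted p = 3.01e-05). The last 5 were named for their smallest p in this same test, so their passing here was set in advance. The first 4 were named for their Ctrl change, which the difference subtracts. The last 5 did not pass in Ctrl mice, and the first 4 did not pass in CIE mice.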

How the results depend on the processing

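Among the changes of named genes and probesets, none turned round: 51 changes gave 1570 values under other settings, of which 1329 stayed on their side of the threshold with their direction, 236 lost and 5 gained the call. The counts of probesets that passed moved more. Late against 0 h gave 20 to 52 with an array left out, 94 at an adjusted p of 0.05, 31 with the 18 arrays alone, 25 with the sets as a block, 24 with array weights and 25 without the 4 arrays that stand apart (main value 49, 14 higher and 35 lower). For 72 h against 0 h (22) the range was 10 to 25, with 39, 13, 12, 14 and 10 in the same order of settings. For 7 d against 0 h (36) it was 22 to 36, with 62 at 0.05, 19 with the block, 20 with array weights, 20 without mice 20 and 62, and 17 without the 4 arrays. For 7 d against 72 h (0) it was 0 to 1, with 2 at 0.05 and 4 with array weights. CIE less Ctrl (174) ran from 83 (without CIE mouse 5 at 0 h) to 227, with 96 without CIE mouse 26 and 110 without Ctrl mouse 30 at 0 h, 485 at 0.05, 75 with the block, 109 at the brightest probeset per gene and 87 without the 4 arrays. The cause of these shifts was not tested. Omitting the 4 arrays, or mice 20 and 62, was chosen after seeing the data. Further quantile normalization, median centring, trend and robust settings, the filter on dim probesets and the fit of 23 Ctrl arrays left the late count within 1.5 times (41 to 59). The calls of detoxification enzymes (3) and metallothioneins (2) were the same count in every setting. No paired analysis was possible because no replicate number is shared between groups, so arrays were paired only through the inferred sets, in the blocked fit above. Precision is limited by 6 to 12 arrays a group and, for dim probesets, by signal near the floor.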
